A study of Drosophila melanogaster with 8 samples.

Results

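The genes kibra, Tao, mats, lft and Myc belong to the Hippo and Fat growth pathways or are controlled by them, and they are described here in wing imaginal discs of BEAF-32 mutant and wildtype Drosophila melanogaster larvae. The 5 genes were found by their symbols in the authors' deposited table of transcripts changed at least 1.5-fold between the genotypes, in which Myc stood as dm, Tao as Tao-1, kibra as CG33967 and lft as CG13139. Each had 1 listed transcript, so the description covers 5 of the 4379 listed transcripts, 5 of 3850 listed genes and 5 of the 16637 transcripts with array values. Other transcripts of these genes, where the array held them, are not named in the value table and are not analysed here. The genes were chosen with their change between the same genotypes known, so their differences are given as a description and carry no p.

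Wing discs are folded epithelia of the larva from which the wing and dorsal thorax of the fly develop, and they were taken from larvae of the third instar. The mutant larvae were homozygous for a BEAF-32 mutation whose allele the labels do not name, and the wildtype larvae were Oregon R of matched age. The labels give the strain as "Orgon R" for both genotypes. BEAF-32 encodes a chromatin-binding boundary (insulator) protein. The labels name 1 mutant genotype only, so the effect of BEAF-32 cannot be told apart from any other way in which mutant and wildtype larvae differed. Poly-A primed cDNA was labelled with Cy3 and hybridised to 4 one-colour arrays per genotype.

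The Hippo pathway restrains organ growth. At the apical cell border the scaffold protein Kibra, with Merlin and Expanded, helps to activate the kinase Hippo, which the kinase Tao phosphorylates. Hippo then activates the kinase Warts with its co-activator Mats, and Warts holds the growth-promoting co-activator Yorkie in the cytoplasm. The giant cadherin Fat, bound by its partner Dachsous on the neighbouring cell, also promotes Warts activity, and Lowfat (the product of lft) binds the intracellular parts of both cadherins and raises their levels. When Yorkie enters the nucleus it switches on growth and survival genes, among them Myc, a transcription factor that drives ribosome production and cell growth, and also pathway brakes such as kibra and expanded. The genes kibra and expanded thus stand at both ends of the pathway.

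Arrays are written here by the pair of numbers in their titles, such as mutant 1_2. The deposited values are log2 values, and array medians lay between 9.364 and 9.433. Arrays of a genotype that shared the first number had correlations of 0.998 to 0.999 over transcripts. With different first numbers, correlations were 0.985 to 0.987 between mutant arrays and 0.966 to 0.97 between wildtype arrays. The design text states 2 biological and 2 experimental replicates without saying which number is which, and the first number was taken as the biological one. Arrays of a genotype sharing the first number were averaged to 1 replicate, and means are given ± SD over the 2 replicates of a genotype (n = 2). The SD, n and every p rest on this assumption. Averaging by the second number instead, limma called 6893 features higher and 5472 lower, against 450 and 719. If the first number is the biological one, that averaging leaves only the spread between repeats of the same samples. The labels do not state separate dissections, so the spread behind the p-values may be technical. BEAF-32 itself read 8.49, 8.47, 8.40 and 8.41 on mutant arrays 1_1, 1_2, 2_1 and 2_2, against 10.09, 11.94, 10.28 and 10.15 on the wildtype arrays in the same order. Every mutant array lay below every wildtype array, and wildtype 1_2 stood apart from the other wildtype arrays. The sources used here do not place the probes relative to the mutation.

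Of the 5 genes, kibra, Tao and Myc were higher in the mutant and mats and lft were lower. The largest difference was that of kibra at 4.07-fold, and the other differences lay between 1.97-fold and 2.33-fold. For each of the 5 genes the 4 mutant arrays did not overlap the 4 wildtype arrays, but the genotypes did not overlap for 49.7% of all features and 89.4% of named genes either. All 5 genes passed limma at an adjusted p under 0.05, and 7.26% of all features and 30.4% of named genes passed. Since the choice used this comparison, nothing is read from these counts. In whole discs, fewer cells of a type and less RNA per cell cannot be told apart. Without mutant replicate 1, or without mutant replicate 2, limma called 0 of the 5 genes. In these fits the residual spread comes from the wildtype replicates alone, and the lone mutant replicate is assumed to vary like them. The log2 differences kept their sign, with the smallest move in Tao (0.99 without mutant replicate 1 and 0.97 without mutant replicate 2) and the largest in mats (-1.18 and -0.84). Without wildtype replicate 1 the log2 difference of mats was -0.95. Among the fits with 1 array left out, mats did not pass limma without mutant arrays 1_2 or 2_1, or without wildtype array 1_2. These calls too rest on the comparison used in the choice, and no ranking of the 5 genes is drawn from them.

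**Figure D1:**
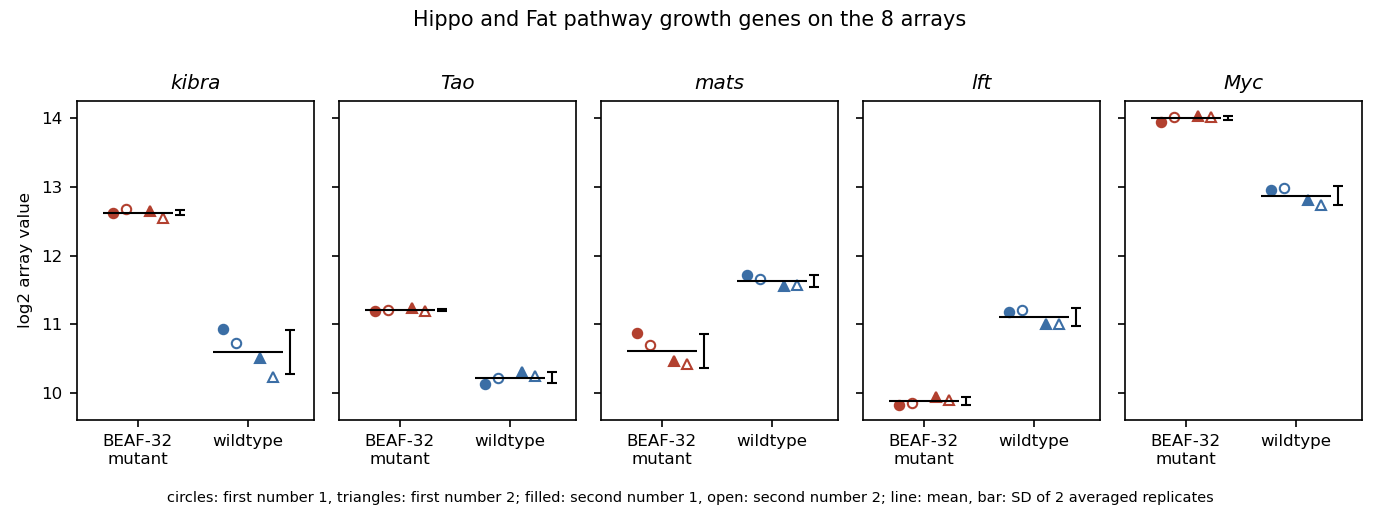
The vertical axis gives the log2 array value of each gene on the 4 BEAF-32 mutant and 4 wildtype arrays, with circles for first number 1, triangles for first number 2, filled marks for second number 1 and open marks for second number 2. Lines are genotype means and bars the SD of 2 averaged replicates. For kibra, Tao and Myc all mutant arrays lie above all wildtype arrays, and for mats and lft all lie below.

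Among the upstream regulators, kibra encodes the WW-domain scaffold that recruits and activates the core kinases. Its transcript (FBtr0100008, chromosome arm 3R) read 12.62, 12.68, 12.65 and 12.55 on mutant arrays 1_1, 1_2, 2_1 and 2_2, against 10.93, 10.72, 10.50 and 10.23 on the wildtype arrays. The mutant arrays lay within a narrow band, while the wildtype arrays with first number 1 read higher than those with first number 2. The means were 12.62 ± 0.04 in the mutant and 10.60 ± 0.33 in wildtype, a log2 difference of 2.03 (SE 0.20). The wildtype replicates differed by 0.46, more than for 73.0% of all features, and the mutant replicates by 0.05. Taken between single averaged replicates the difference ran from 1.77 to 2.28, so that its size depended on the wildtype replicate more than on the mutant one. The difference was larger than that of 98.1% of all features and of 91.8% of the named genes.

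Tao encodes a Sterile-20 type kinase that phosphorylates Hippo and that is also known for effects on microtubules. The transcript (FBtr0074774, X chromosome) read 11.19, 11.21, 11.23 and 11.20 on the mutant arrays and 10.13, 10.22, 10.30 and 10.26 on the wildtype arrays. Both genotypes were tight, and the lowest mutant array stood 0.89 above the highest wildtype array. The means were 11.21 ± 0.01 in the mutant and 10.23 ± 0.07 in wildtype, a log2 difference of 0.98 (SE 0.12, 1.97-fold). This was the smallest of the 5 differences. It was 9.33 times the larger of its replicate gaps, the highest such ratio among the 5 genes. A gap between 2 replicates is imprecise, so the ratio does not rank the genes by reliability. Slmap at -0.96, hth at -0.93 and ex at 0.92 were the pathway genes next below Tao in size of difference.

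The core kinase co-activator mats encodes a small Mob-family protein that binds and activates Warts. Its transcript (FBtr0084229, chromosome arm 3R) read 10.87, 10.71, 10.46 and 10.43 on the mutant arrays and 11.71, 11.66, 11.55 and 11.57 on the wildtype arrays. The mutant arrays split by first number, with replicate 1 the higher. The means were 10.62 ± 0.24 in the mutant and 11.63 ± 0.09 in wildtype, a log2 difference of -1.01 (SE 0.17, 2.01-fold lower). The mutant replicates differed by 0.35, more than for 87.2% of all features, which made mats the only one of the 5 genes whose mutant replicates were further apart than its wildtype replicates. Between single averaged replicates the difference ran from -0.77 to -1.24.

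The Fat branch was represented by lft, whose product binds the cytoplasmic tails of Fat and Dachsous. The lft transcript (FBtr0080002, chromosome arm 2L) read 9.83, 9.85, 9.94 and 9.91 on the mutant arrays and 11.18, 11.21, 11.01 and 11.01 on the wildtype arrays. Arrays that shared a first number differed by no more than 0.04, the closest agreement among the 5 genes. The means were 9.88 ± 0.06 in the mutant and 11.10 ± 0.13 in wildtype, a log2 difference of -1.22 (SE 0.13, 2.33-fold lower). The lowest lft value still lay 2.94 above the lowest value of its array, the nearest that any of the 5 genes came to the array floor.

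Myc, the growth-promoting transcription factor at the output end of the pathway, was the gene farthest above the array floor, with at least 5.89 between it and the lowest value of the array. The transcript (FBtr0070525, X chromosome) read 13.95, 14.02, 14.03 and 14.02 on the mutant arrays and 12.95, 12.99, 12.80 and 12.74 on the wildtype arrays. The mutant arrays were nearly level and the wildtype arrays split by first number. The means were 14.01 ± 0.03 in the mutant and 12.87 ± 0.14 in wildtype, a log2 difference of 1.13 (SE 0.13, 2.20-fold). Between single averaged replicates it ran from 1.02 to 1.25.

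The other genes of the pathway came from 4 lists of 76 genes in all, and a gene is named only where the authors' deposited table lists it. That was the case for 27, the 5 genes included. Taz, which is not a pathway gene, is counted among the 27. Limma called 10 of them higher and 4 lower, and 13 did not pass. Their median log2 difference was 0.89, and by sign 17 were higher and 10 lower. Named genes had 1941 higher (median 0.84) and 1909 lower (median -0.92), so their median of 0.59 lay at the 1.5-fold limit. It is no typical shift, and the median of such a selected set depends mainly on its split by sign. Over all features, which had no fold limit, the median was 0.06. Of all features 2.79% passed as higher and 4.46% as lower, and of named genes 11.7% and 18.7%. Without the 5 genes, 7 of 22 rose, 2 fell and 13 did not pass. A listed gene had to change by at least 1.5-fold to be named, so these counts describe selected genes. Of the 27 genes, 0 passed without mutant replicate 1 (limma, with 13 higher and 7 lower at an unadjusted p under 0.05), 1 passed without mutant replicate 2, and 15 higher and 2 lower passed without wildtype replicate 1. Without wildtype replicate 2, limma called 16 of the 27 higher and 5 lower, and without mutant array 1_2 it called 10 higher and 2 lower. The genes ex, fj, ft, par-1 and sdt, which did not pass with all arrays, passed when either wildtype replicate was left out, and dally and Hcf passed without wildtype replicate 2. When a wildtype replicate is left out, the residual spread comes from the mutant replicates alone, with the lone wildtype replicate assumed to vary like them.

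**Figure D2:**
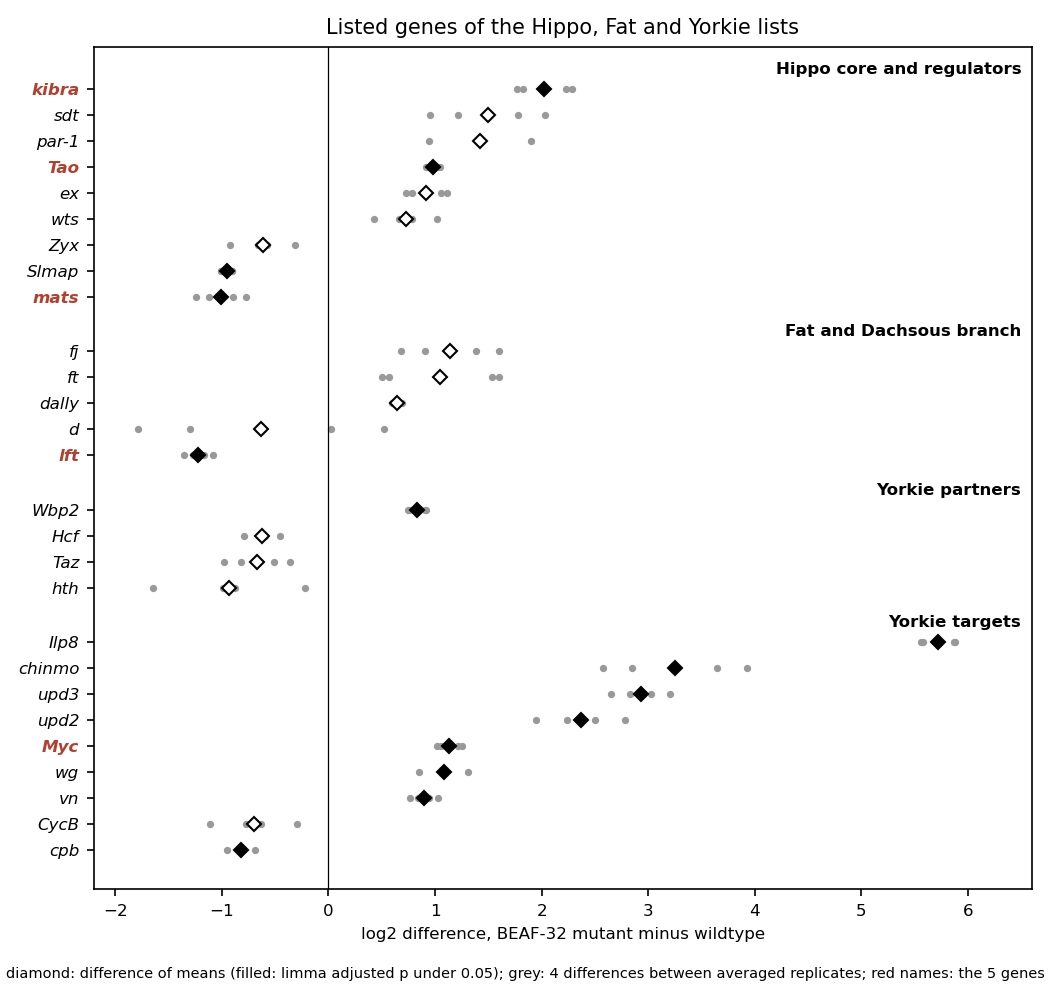
The horizontal axis gives the log2 difference, BEAF-32 mutant minus wildtype, of the 27 listed genes. They are grouped by list, each gene shown once under the first list that holds it. Taz is shown under the Yorkie partners but is not one. Diamonds are differences of means, filled where limma's adjusted p was under 0.05, grey points are the 4 differences between averaged replicates, and red names mark the 5 genes. The 4 replicate differences lie on both sides of 0 for d alone.

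In the list of Hippo core kinases and their regulators 9 of 28 genes were named, of which 2 rose, 2 fell and 5 did not pass. Beside kibra, Tao and mats the gene that passed was Slmap, whose product brings a phosphatase complex to Hippo and so restrains it. It read 11.46 ± 0.07 in the mutant and 12.42 ± 0.00085 in wildtype, a log2 difference of -0.96 with an adjusted p of 0.028. The genes above Tao in size that did not pass were sdt, an apical polarity gene of the Crumbs complex (1.49, adjusted p = 0.072), and par-1, a polarity kinase reported in flies to restrain Hippo (1.42, adjusted p = 0.055). The kinase gene wts, the direct partner of mats, was at 12.17 ± 0.16 in the mutant and 11.44 ± 0.25 in wildtype, a difference of 0.72 (adjusted p = 0.10), opposite in sign to mats. The FERM-domain gene ex, partner of Kibra and itself a Yorkie target, was at 14.35 ± 0.04 in the mutant and 13.43 ± 0.23 in wildtype (0.92, adjusted p = 0.051), and the LIM-domain gene Zyx was at -0.62 (adjusted p = 0.14). Limma called ex higher without mutant array 2_2 and without wildtype arrays 1_1 or 2_2. It called par-1 higher without mutant array 2_2 and without wildtype array 1_1.

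In the list for Fat and Dachsous signalling 6 of 13 genes were named, of which 0 rose, 1 fell (lft) and 5 did not pass, with 3 higher and 2 lower at an unadjusted p under 0.05 in limma. The cadherin gene ft, whose protein Lowfat binds, was at 13.54 ± 0.04 in the mutant and 12.49 ± 0.73 in wildtype, a log2 difference of 1.05 (adjusted p = 0.17). The Golgi kinase gene fj, whose product modifies both cadherins and which Yorkie induces, was at 11.99 ± 0.15 in the mutant and 10.85 ± 0.49 in wildtype (1.14, adjusted p = 0.092). The genes ft and fj had differences as large as those of Tao and mats with a much wider wildtype spread, while lft differed in the other direction. The unconventional myosin gene d (dachs), which acts below Fat, was at 11.15 ± 1.28 in the mutant and 11.78 ± 0.35 in wildtype, and its genotypes overlapped. The glypican gene dally differed by 0.64 (adjusted p = 0.054).

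Yorkie and its nuclear partners had 4 of 20 genes named, and yki itself was not among them. Limma called 1 higher, Wbp2, whose WW-binding protein assists Yorkie, at 13.07 ± 0.01 in the mutant and 12.24 ± 0.12 in wildtype (0.83, adjusted p = 0.039). Its other listed transcript differed by 0.67, and with the median of listed transcripts Wbp2 did not pass. The homeobox partner gene hth was at -0.93 (adjusted p = 0.20) and the chromatin cofactor gene Hcf at -0.62 (adjusted p = 0.08). The fly symbol Taz, which stood on the list, belongs to tafazzin, an enzyme of mitochondrial lipids, and not to a Yorkie partner. It was at -0.67 (limma adjusted p = 0.14). Taz was kept in the counts of this list and of the lists together, among the genes that were lower by sign and did not pass.

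Of 28 genes listed as Yorkie targets 13 were named, of which 8 rose, 1 fell and 4 (fj, ex, dally and CycB) did not pass. Of named genes 11.7% passed as higher and 18.7% as lower, and of all features 2.79% and 4.46%. The 8 include kibra and Myc, which were chosen by this same comparison, and every named gene had to change by at least 1.5-fold. The median log2 difference of the 13 was 1.13, the value of Myc itself, so it is not independent of the choice. The listed genes that rose beside kibra and Myc were Ilp8, chinmo, upd3, upd2, wg and vn. Ilp8, an insulin-like peptide released by damaged or overgrown discs, differed by 5.72, and chinmo by 3.25 (4.22 for its other listed transcript). The JAK/STAT ligand genes upd3 and upd2 differed by 2.93 (limma adjusted p = 0.0099) and 2.37. The ligand gene wg differed by 1.08 (1.18 for its other listed transcript). The EGF-type ligand gene vn differed by 0.89 (1.31 for its other listed transcript). The 1 list entry that fell was the capping protein gene cpb, by 0.82 on the log2 scale (adjusted p = 0.044). It did not pass without mutant array 1_2 or wildtype array 2_2, and whether Yorkie induces cpb was not checked here. The cyclin gene CycB was at -0.70 (adjusted p = 0.16). Ilp8, upd2, upd3 and chinmo are known targets of JNK or JAK/STAT signalling, so the list is not specific to Yorkie. Whether Yorkie induces each listed gene was not checked here, so the counts are no measure of Yorkie activity.

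Of 38 genes of the Myc network and the nucleolus 8 were named, of which 2 rose, 0 fell and 6 did not pass, with 2 higher and 5 lower at an unadjusted p under 0.05 in limma. The genes that rose were bigmax, a partner of the sugar-responsive factor Mondo, at 10.80 ± 0.10 in the mutant and 9.15 ± 0.07 in wildtype (1.64, adjusted p = 0.013), and Non1, a nucleolar GTPase gene needed for ribosome assembly, at 14.47 ± 0.07 in the mutant and 13.34 ± 0.01 in wildtype (1.13, adjusted p = 0.022). The nucleolar genes Nopp140 (-0.68, adjusted p = 0.052) and Tif-IA, the initiation factor of RNA polymerase I (-0.78, adjusted p = 0.072, and -1.33 for its other listed transcript), had negative differences. The median of the 8 was -0.67. By sign, 3 of the 8 were higher and 5 lower.

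In the list for insulin and TOR growth signalling 12 of 24 genes were named, of which 5 rose, 0 fell and 7 did not pass, with 9 higher and 3 lower at an unadjusted p under 0.05 in limma. Those that rose were Ilp8, the insulin antagonist gene ImpL2 (3.21, adjusted p = 0.022), the stress-responsive factor gene REPTOR (1.18, adjusted p = 0.021), the kinase gene S6k (0.92, adjusted p = 0.033) and the translation inhibitor gene Thor (0.91, adjusted p = 0.037). The list held both activators and inhibitors of growth, and its median log2 difference was 0.77. The Myc difference lay between those of REPTOR and S6k.

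Within the 5 genes the profiles fell into a higher set and a lower set. Tao and Myc, a kinase that activates Hippo and a gene that Yorkie induces, were the closest pair, with a root mean square difference of 0.15 over the 8 arrays after each gene's wildtype mean was subtracted. The pair of lower genes, mats and lft, lay 0.22 apart, and kibra lay 0.64 from Myc and 0.77 from Tao. Of the pathway's activating side, kibra and Tao were higher and mats was lower. Such distances follow mainly from the size of the genotype difference and say nothing of shared control.

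By the same measure the named genes most like kibra were CG1146 (0.08), CG1582 (0.12) and the transporter gene MFS3 (0.13), and 22 named genes lay within 0.2 of it. Tao lay nearest to CG10445 (0.04), the cytochrome P450 gene Cyp6d4 (0.04) and Qtzl (0.05), with 232 named genes within 0.2. The nearest genes to mats were Tapdelta, of the secretory translocon (0.05), the peptidase gene DppIII (0.05) and the lysine catabolism gene LKRSDH (0.05), with 320 within 0.2. Those nearest to lft were Mtpalpha, of mitochondrial fatty acid oxidation (0.03), Slc45-1 (0.05) and CG32119 (0.06), with 263 within 0.2. Myc lay nearest to the NF-kappaB gene dl (0.04), the stress-response factor gene Xrp1 (0.05) and CG44325 (0.05), with 162 within 0.2. Fewer named genes lay within 0.2 of kibra than of any of the other 4 genes.

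Boundary proteins such as BEAF-32 often bind between adjacent genes, so the genes next to the 5 were also described, with order taken from the RefSeq table (assembly Release 6 plus ISO1 MT). Among the 10 protein-coding genes nearest to each, 5 on either side, 12 of 50 were named in the authors' deposited table, against 25.3% of all protein-coding genes. The nearest gene on one side of kibra was Meltrin, a membrane metalloprotease gene, at a mean of 13.48 in the mutant and 12.59 in wildtype (log2 difference 0.88, adjusted p = 0.091). Next to Tao lay CG14218 (0.76, adjusted p = 0.17), and next to mats lay pinta, a gene of visual pigment formation (-0.67, adjusted p = 0.087). Neither direct neighbour of lft (pim and CG5056) was named, nor was CG12535, which overlaps Myc. For the 5 genes together 8 of 12 named genes of the window had the sign of the gene they lay next to, and over all pairs of named genes within 5 places of each other 60.1% shared a sign. By gene these were 1 of 1 for kibra, 2 of 2 for Tao, 2 of 2 for mats, 3 of 3 for lft and 0 of 4 for Myc. Leaving Myc out would choose genes by their outcome, so only the 8 of 12 is set beside the 60.1%. Limma called 0 of the 8 around kibra, Tao, mats and lft at an adjusted p under 0.05 (8 at an unadjusted p under 0.05). Among the named genes around the fifth gene, Myc, 0 of 4 had its sign: ng1 (-2.70), Pig1 (-2.66) and Sgs4 (-2.07), which are genes of a salivary gland cluster, fell, and CG16782 was at -0.69. The window of 5 places was chosen after the values had been seen.

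**Figure D3:**
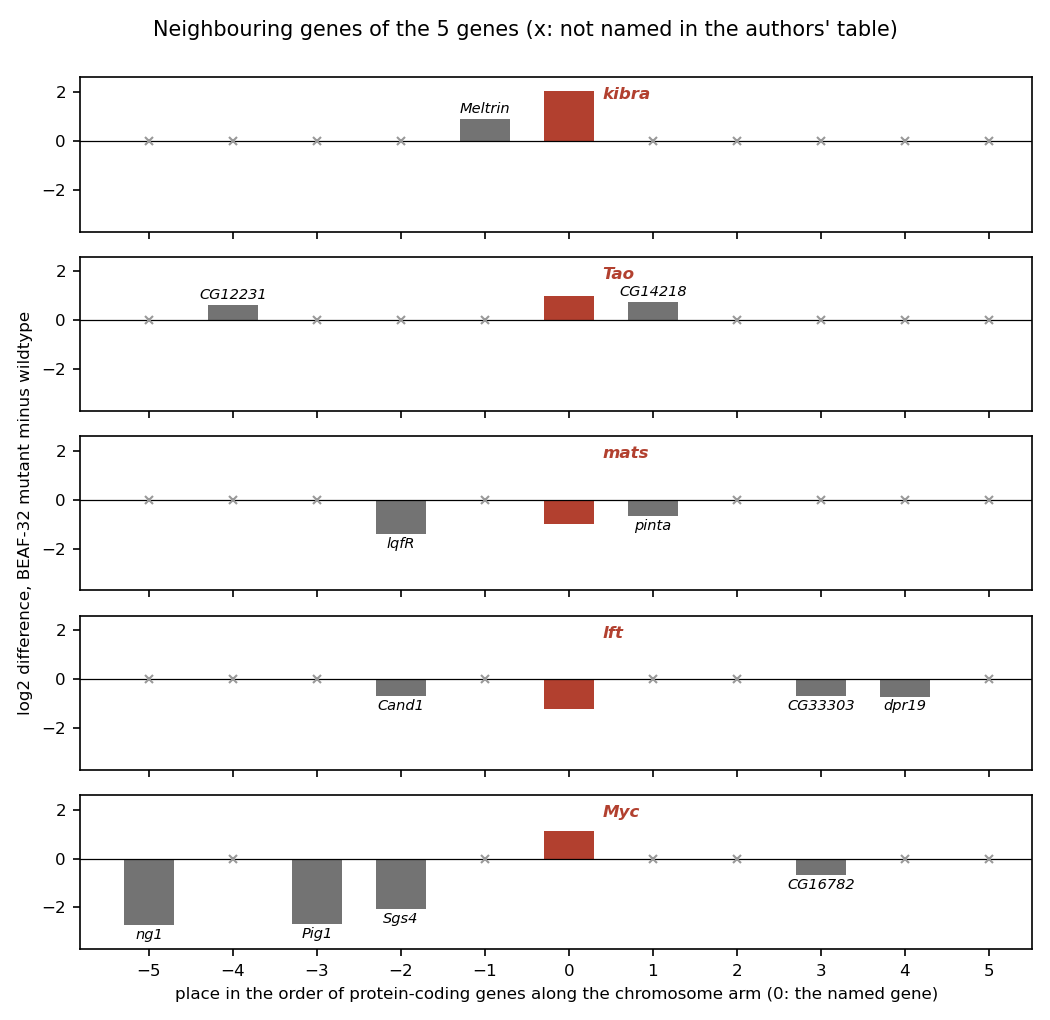
Each panel shows 1 of the 5 genes (red bar) at place 0 and its 5 protein-coding neighbours on either side, in gene order, with the log2 difference, BEAF-32 mutant minus wildtype, on the vertical axis. Grey bars are neighbours named in the authors' deposited table and crosses are neighbours not named there. The named neighbours of kibra and Tao lie above 0 and those of mats and lft below it, while all 4 named neighbours of Myc lie below 0.

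Other measurements moved with these differences in the same samples. Of 18 salivary gland markers 13 were named and all 13 fell, and their summed linear array values were 12687 to 14688 on mutant arrays and 216215 to 241958 on wildtype arrays. Sgs5 alone lay within 0.5 of the array minimum on every mutant array. Of 14 fat body markers 13 were named, of which 10 were lower and 5 fell. The 3 higher ones, FASN1 (2.49), ple (1.53) and Yp1 (0.64), did not pass. The fat body sums were 23313 to 47154 in the mutant and 163877 to 169203 in wildtype. Mutant replicates differed for some of these genes. Lsp1gamma read 10.84 and 10.74 on mutant arrays 1_1 and 1_2, and 13.74 and 13.70 on 2_1 and 2_2. For ple, mutant replicate 1 was the higher. Of 16 haemocyte (blood cell) markers 9 were named, all were higher and 5 rose, with sums of 40870 to 44486 in the mutant and 10694 to 16892 in wildtype. Of 30 wing disc markers 13 were named, 1 rose (wg) and 5 fell, and 17 others are not named; the sums were 29706 to 32705 in the mutant and 43753 to 53306 in wildtype. Named genes of the tracheal list (6 of 10) had 3 that rose (bnl, serp and verm) and 1 that fell (dys). Muscle markers (5 of 16) had 3 that fell, and the neural list (3 of 10) had 1 that fell (sc). Whether each of these genes marks its tissue in wing discs was not checked. No named marker but Sgs5 lay within 0.5 of the minimum on every mutant array, and none did on every wildtype array. Obp99b, Sgs5bis and ng3 were little further from it. Their mutant means were 7.51, 7.51 and 7.53, against minima of 6.83 to 6.90 on the mutant arrays. A marker had to change by at least 1.5-fold to be named, and markers not named are left out of the sums. These counts and sums therefore describe selected markers and do not measure the amount of a tissue. The part of these tissues in the differences of kibra, Tao, mats, lft and Myc was not tested.

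The polarity gene l(2)gl, whose loss is known in flies to raise Yorkie activity in discs, was near the array floor in the mutant. It read 6.94, 6.88, 6.88 and 6.91 on the mutant arrays, at most 0.04 above the lowest value of the array, against 13.03, 13.25, 12.80 and 12.89 on the wildtype arrays. It was at least 68.2-fold lower in the mutant, a lower bound because the mutant values lay so near the floor. Low l(2)gl and the BEAF-32 mutation occurred in the same samples. Their parts in the values of the 5 genes and of the listed Yorkie targets therefore cannot be told apart.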

How the data were processed

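RNA of wing discs was measured on 8 one-colour arrays, 4 of BEAF-32 mutant and 4 of wildtype larvae. The log2 values were made and deposited by the authors, and per the submitters' processing notes RMA and Partek were used. Versions, build and probe design were not given in the sources used here. The authors' deposited table gives, per the file headers, a ratio of wildtype over mutant, a signed fold change, p-values and F statistics (scores) for 4379 transcripts. Differences here are mutant minus wildtype, so their signs oppose that ratio.

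Gene names came from that table. Of 3850 genes 2541 matched the RefSeq table by symbol and 1079 by synonym, and 230 kept their name. The other 12258 transcripts are unnamed here. For a named gene the transcript of highest mean was used, which gave 16108 features. The test was that of limma (version 3.58.1, R version 4.3.3, lmFit and eBayes) for mutant minus wildtype on 2 averaged replicates per genotype, with genotype as the only term and Benjamini-Hochberg adjustment over all features. "Rose" and "fell" mean an adjusted p under 0.05. SEs are limma's. This step was first run on simulated data with independent replicates and the spreads shuffled over features. The arrays here differ from that setting, so nothing about the calls is read from it.

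The 5 genes, the lists and the tests were chosen with earlier results of these data known. Named genes are the 5, BEAF-32, l(2)gl, every named gene of the Hippo, Fat and Yorkie lists, up to 4 of the Myc list by p, the nearest genomic neighbours named in the authors' table, and for each of the 5 genes the 3 named genes with the nearest profile. Genes of the insulin and TOR list, of the tissue lists and of the wider neighbour window were named after their values were seen. The number of arrays limits the precision. Planned counts of promoter motifs are not analysed here.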

Additional observations from a re-analysis of the deposited data

Results flagged for a closer look

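On 1 array BEAF-32 lay far from the others of its genotype: wildtype 1_2 read 11.94 and the next wildtype array 10.28. Without wildtype 1_2 the log2 difference of BEAF-32, mutant minus wildtype, was -1.71, against -2.17 with all arrays. The glypican gene dally was set apart on mutant 1_1 at 13.81, against 13.71 on the nearest mutant array, and on wildtype 2_2 at 13.05, against 13.10 on the nearest wildtype array, both within ranges of 0.11 and 0.06. Of 58 groups of 4 arrays checked over 29 genes these were the 3 found. Chance gives about 1 in 20 groups where the 4 values are independent. Here the arrays form close pairs by first number, so that rate need not hold. None of the values of kibra, Tao, mats, lft or Myc was set apart in this way. Where a gene splits by first number the check can hardly flag a lone array, so little is read from this.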

How the results depend on the processing

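In 21 alternative settings the log2 differences of kibra, Tao, mats, lft and Myc kept their sign. Leaving out replicates or arrays, they ran from 1.80 to 2.26 for kibra, 0.93 to 1.03 for Tao, -1.18 to -0.84 for mats, -1.31 to -1.13 for lft and 1.04 to 1.23 for Myc. Quantile normalization again put Tao at 1.03, against 0.98. The counts of calls depended on the setting. If the first number is the biological one, averaging by the second number leaves only the spread between repeats of the same samples. Taking 8 separate arrays then counts those repeats as replicates. Arrays sharing a first number correlated at 0.998 to 0.999, against 0.985 to 0.987 (mutant) and 0.966 to 0.97 (wildtype) with different first numbers. How far this accounts for the counts was not tested. With arrays sharing the second number averaged, 6893 features were higher and 5472 lower, 17 and 10 of them on the pathway lists. With 8 separate arrays the counts were 3935 and 3691 (17 and 9 on the lists). A random block of first numbers gave 1446 and 1881 (17 and 8). A replicate block of first numbers gave 736 higher and 1036 lower (14 and 5), against 450 and 719 (10 and 4). The same numbers in both genotypes correlated at 0.31 across features in their replicate differences, but only a number is shared. Leaving out replicates or arrays gave 0 to 2476 higher and 0 to 2380 lower, and 0 to 16 higher and 0 to 5 lower on the lists; the low ends came without mutant replicate 1, where 2022 features had an unadjusted p under 0.05 in limma. Depth above background could be judged only from the lowest array values.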
